A study of Mus musculus with 46 samples.

Results

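Enzymes that make the building blocks of DNA were followed in mouse microglia, the resident macrophages of the brain, through 8 named genes: Rrm1, Rrm2, Tyms, Dut, Tk1, Dck, Umps and Cad. They were taken by symbol from the deposited tables of 20999 genes, all 8 were found, and all 8 were among the 12230 genes that passed a filter on low counts. All mice were C57BL/6 males, and 10 RNA libraries made 5 groups of 2. Adult microglia came from untreated wild-type mice of 90 days and are labelled Ki67-negative. Untreated mice of postnatal day 8 (PND8) and mice in repopulation carried the Ki67-rfp reporter, and their microglia were sorted into Ki67-negative and Ki67-positive cells. Repopulation means mice of 75 days that ate PLX5622, an inhibitor of the CSF1 receptor that removes microglia, for 17 days from day 55 and then recovered for 3 days. Ki67 marks cells in the cell cycle.

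Chromatin came from wild-type mice, with cells for ChIP-seq fixed and sorted with an antibody to Ki67 rather than the reporter. H3K27ac, an acetylation of histone H3 found where promoters and enhancers are active, was profiled in 6 groups of 2: untreated adults of 60 and 65 days, PND8 Ki67-negative and Ki67-positive cells, Ki67-positive repopulating cells of 90 days, and Ki67-negative and Ki67-positive cells of mice of 90 days fed the demyelinating toxin cuprizone for 4 weeks. H3K4me3, a mark of promoters, had 2 adult lists (75 days). Rpb2, a subunit of RNA polymerase II, had 2 adult lists (60 and 65 days) and 1 of PND8 Ki67-positive cells. ATAC-seq, which reads open chromatin, had 1 list each of adult (80 days), PND8 Ki67-positive and repopulating Ki67-positive cells (75 days). The last 2 are titled as reporter mice but carry a wild-type genotype label. Microglia were sorted with antibodies to CD11b, CD45 and CD44. All cells were isolated on ice in the presence of sodium butyrate, a deacetylase inhibitor, and flavopiridol, an inhibitor of transcription.

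RNA libraries held 6865903 to 10287876 counts. Of the 8 microglia markers looked up, none was at 0 in any group, and their summed level was 6630 to 8670 CPM (CPM is the count scaled to the library total, with TMM factors). Mki67, the gene of the sort marker, was at 11.0 and 13.4 CPM in adult cells, at 242 to 463 in the 4 Ki67-negative libraries and at 920 to 1107 in the 4 Ki67-positive ones. The libraries labelled Ki67-negative at PND8 and in repopulation therefore carried more Mki67 RNA than adult cells, by 4.42 ± 0.19 (SE) and 5.03 ± 0.19 on the log2 scale. Markers of other cells differed between groups. The 5 border macrophage markers summed to 593 to 851 CPM at PND8, mostly Mrc1, against 62.2 to 74.7 in adult and 26.0 to 42.8 in repopulating cells. The 6 astrocyte markers, mostly Slc1a3, summed to 238 and 248 CPM in adult cells and to 409 to 566 in repopulating cells. At PND8 they summed to 95.1 and 429 in Ki67-negative and to 59.8 and 374 in Ki67-positive cells. The 5 erythroid markers summed to 16.9 to 57 CPM at PND8 and to at most 5.25 elsewhere. The 6 monocyte or neutrophil markers summed to 61.6 and 211 CPM in adult cells and to at most 9.26 elsewhere. Their part in the results below was not tested.

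Pyrimidine nucleotides are built from small precursors by a chain that opens with Cad, a multifunctional enzyme of the first steps, and ends in Umps, which makes UMP. Ribonucleotide reductase, a complex of the large subunit Rrm1 with the small subunit Rrm2 or its paralogue Rrm2b, turns ribonucleotides into deoxyribonucleotides. Dut removes dUTP and yields dUMP, which Tyms methylates to dTMP with a folate as the donor, while Tk1 and Dck rescue deoxynucleosides by phosphorylation. In dividing cells Rrm2, Tyms and Tk1 are known as genes of S phase, whereas Rrm2b and the mitochondrial kinase Tk2 serve cells that are not dividing. Samhd1 degrades deoxynucleotides and is abundant in resting myeloid cells.

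The sequences before the start sites of 4 of the enzymes are printed because H3K27ac at these promoters differed between groups, as given further on. They are the 250 bases upstream of the RefSeq start site, from the GRCm38.p6 table (the same assembly as mm10), written 5′ to 3′ on the strand of the gene. Positions are chr7:102441445-102441694 for Rrm1 and chr12:24708004-24708253 for Rrm2, both on the plus strand. They are chr5:30073626-30073875 for Tyms and chr11:117826015-117826264 for Tk1, both on the minus strand. Capitals mark exact matches, on either strand, to the letters searched: TTCCCGC and TTGGCGC (E2F-type cores), CCAAT (the core of NF-Y sites), TTTGAA and TTCGAA (CHR elements) and CACGTG (E-box).
Rrm1: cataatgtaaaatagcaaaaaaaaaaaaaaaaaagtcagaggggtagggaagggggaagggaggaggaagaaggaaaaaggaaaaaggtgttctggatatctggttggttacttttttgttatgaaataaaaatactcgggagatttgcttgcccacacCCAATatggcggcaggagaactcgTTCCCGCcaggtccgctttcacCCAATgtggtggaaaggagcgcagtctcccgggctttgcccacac
Rrm2: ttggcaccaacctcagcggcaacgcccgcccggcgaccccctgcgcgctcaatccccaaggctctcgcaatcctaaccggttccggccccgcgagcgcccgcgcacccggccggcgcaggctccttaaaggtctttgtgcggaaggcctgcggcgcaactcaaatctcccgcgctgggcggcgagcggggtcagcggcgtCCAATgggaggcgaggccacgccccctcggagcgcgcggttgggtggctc
Tyms: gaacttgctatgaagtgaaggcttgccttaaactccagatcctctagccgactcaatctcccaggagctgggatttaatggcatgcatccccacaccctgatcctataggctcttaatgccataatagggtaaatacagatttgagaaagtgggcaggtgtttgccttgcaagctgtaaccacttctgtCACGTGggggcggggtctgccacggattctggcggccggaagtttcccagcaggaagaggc
Tk1: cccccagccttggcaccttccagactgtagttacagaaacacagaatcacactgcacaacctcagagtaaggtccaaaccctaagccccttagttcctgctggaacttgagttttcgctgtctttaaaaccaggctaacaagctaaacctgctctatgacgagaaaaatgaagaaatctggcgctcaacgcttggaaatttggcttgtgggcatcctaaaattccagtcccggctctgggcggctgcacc
Rrm1 held TTCCCGC at -67 from the start site and CCAAT at -91 and -45. Rrm2 held CCAAT at -50 and Tyms held CACGTG at -61, while Tk1 held none of these letters. Among the promoters of all 8 genes, searched over 300 bases (250 before and 50 after the start), CCAAT stood in 2 (Rrm1, Rrm2), beside 37.4% of all 32851 promoters in the table. TTTGAA stood in 2 (Dck, Umps) beside 17.9%, CACGTG in 1 (Tyms) beside 7.15%, and TTCCCGC in 1 (Rrm1) beside 4.6%. TTGGCGC and TTCGAA stood in none of the 8, beside 2.45% and 1.56%. Base composition differed among the 4: G and C made up 72.4% of the 250 bases before Rrm2, with 34 CG dinucleotides, against 46.0% and 7 at Rrm1, 52.0% and 6 at Tyms, and 49.6% and 6 at Tk1. The median promoter had 52.4% and 6. For Dut the table's start site lies 267 bases from the start used in the count table, so its sequence is not shown.

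Against adult microglia, the enzymes of deoxynucleotide supply were higher in both Ki67 fractions at PND8 and in repopulation, while Umps and Cad, the enzymes of de novo pyrimidine synthesis, differed by at most 0.59 on the log2 scale. Rrm2 changed most, by 5.99 to 6.51 on the log2 scale. Rrm1, Tyms, Dut and Tk1 rose by 2.20 to 3.28, and Dck by 0.53 to 1.73. The split did not hold for Dck in PND8 Ki67-positive cells, where Cad rose by 0.59 and Dck by 0.53. By the quasi-likelihood test of edgeR, with p-values adjusted by Benjamini-Hochberg (threshold 0.05), 7 of the 8 rose in PND8 Ki67-positive cells, where 25.1% of all tested genes rose, and 8 of 8 in PND8 Ki67-negative cells, where 25.4% did. In repopulation 6 of 8 rose in each fraction, beside 23.9% of tested genes in Ki67-positive and 21.5% in Ki67-negative cells. None fell in any of these 4 comparisons, beside 24.3%, 21.4%, 21.0% and 17.6% of tested genes (PND8 Ki67-positive, PND8 Ki67-negative, repopulating Ki67-positive, repopulating Ki67-negative). The median log2 change of the 8 was 2.31, 2.56, 2.38 and 2.24 in that order, and that of all tested genes lay between -0.01 and 0.03. The 4 comparisons share the 2 adult libraries, and the adult mice also differ in age and lack the reporter, which cannot be told apart from the group. In bulk RNA, fewer cells that express a gene and less RNA per cell cannot be told apart.

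Ribonucleotide reductase showed the widest contrast. Rrm2, on chromosome 12 (mm10 24708254 to 24714146), was at 1.504 and 1.344 CPM in the adult libraries, from 13 and 11 counts. PND8 libraries held 110 and 151 CPM (Ki67-negative) and 89.4 and 93.3 (Ki67-positive). Repopulation libraries held 107 and 158 (Ki67-negative) and 108 and 143 (Ki67-positive). All 8 of these lay above both adult libraries, with no overlap. In the comparisons with adult, 78.8% (PND8 Ki67-positive), 72.1% (PND8 Ki67-negative), 77.1% (repopulating Ki67-positive) and 73.8% (repopulating Ki67-negative) of all tested genes had no overlap either. The log2 change against adult was 6.51 ± 0.31 (SE, adjusted p = 7.04e-09, edgeR) in PND8 Ki67-negative and 5.99 ± 0.31 (7.97e-09) in PND8 Ki67-positive cells. In repopulation it was 6.51 ± 0.31 (7.72e-09) in Ki67-negative and 6.44 ± 0.31 (4.71e-09) in Ki67-positive cells. Rrm1, on chromosome 7 (102441695 to 102469771), was not low in adult cells to the same degree. Adult libraries had 31.7 and 28.2 CPM of it, and the other 8 had 120 to 189. Its log2 changes against adult ran from 2.28 to 2.50 in the 4 groups, with errors of 0.18.

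**Figure D1:**
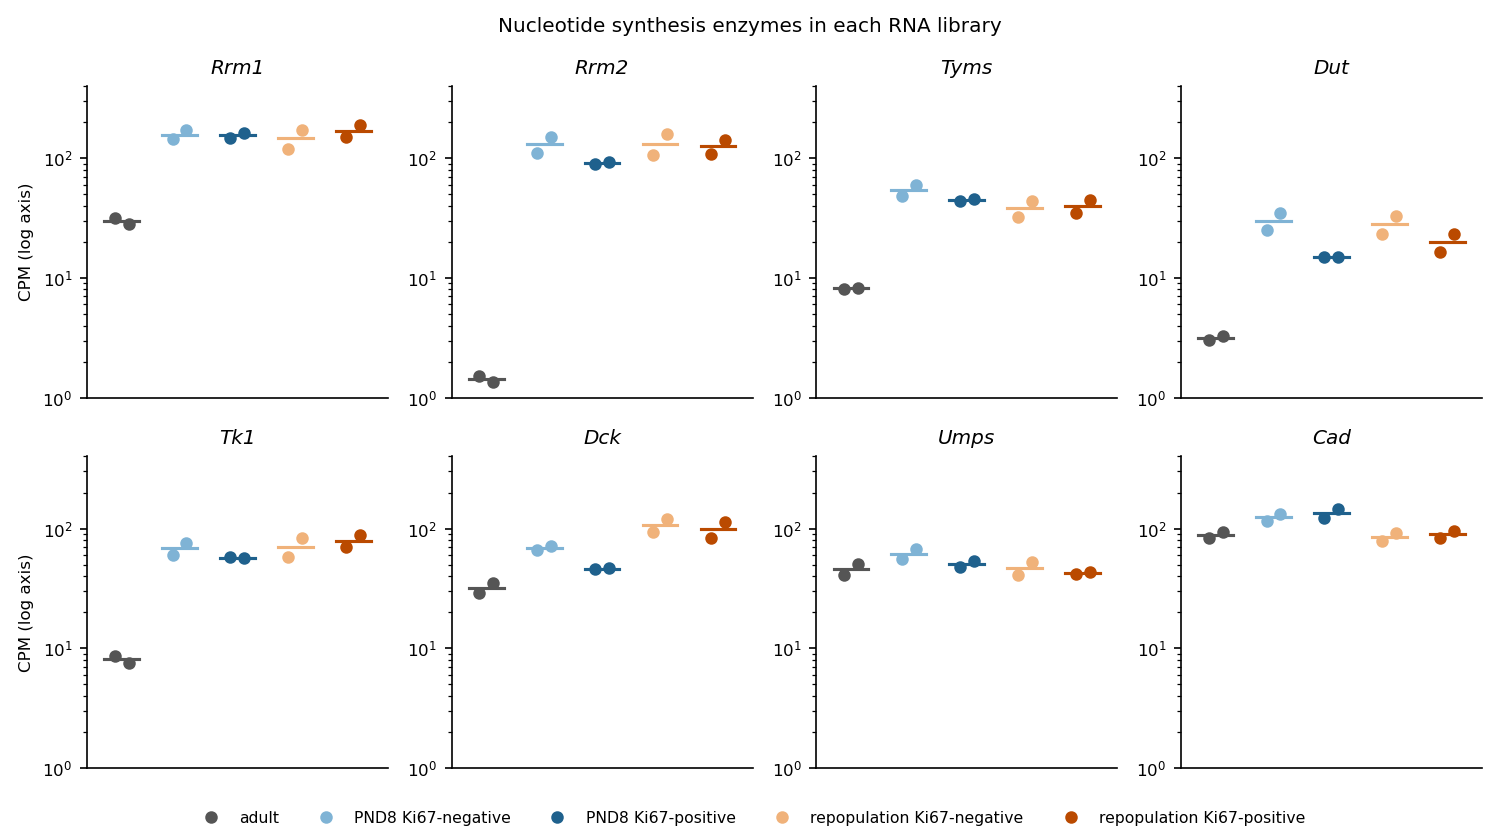
CPM (log axis) of the 8 enzymes in the 10 RNA libraries, with 1 point per library and a bar at the mean of each group of 2. Rrm2 lies at 1.344 and 1.504 CPM in adult cells and above 89 in every other library. Umps and Cad vary far less, and Cad is higher at PND8 than in adult or repopulating cells.

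Both enzymes of dTMP synthesis rose as well. Dut, on chromosome 2 (125247248 to 125259049), was at 3.01 and 3.30 CPM in adult cells. PND8 cells had 24.9 and 35.0 (Ki67-negative) and 14.9 and 14.9 (Ki67-positive), while repopulating cells had 23.4 and 32.6 (Ki67-negative) and 16.3 and 23.5 (Ki67-positive). No library overlapped the adult pair, and the log2 change ran from 2.24 ± 0.29 (adjusted p = 3.25e-05, edgeR) in PND8 Ki67-positive to 3.25 ± 0.28 (8.68e-07) in PND8 Ki67-negative cells. Tyms, on chromosome 5 (30058200 to 30073625), was at 8.10 and 8.31 CPM in adult cells and at 32.1 to 59.4 in the other 8 libraries. Its log2 changes were 2.72 ± 0.20 and 2.45 ± 0.20 at PND8 (Ki67-negative, then Ki67-positive) and 2.20 ± 0.20 and 2.27 ± 0.20 in repopulation.

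The 2 salvage kinases rose by different amounts. Tk1, the cytosolic thymidine kinase, on chromosome 11 (117815519 to 117826014), was at 8.68 and 7.58 CPM in adult and at 56.99 to 88.7 in the other libraries, which is 3.07 ± 0.21 and 2.82 ± 0.21 higher at PND8 and 3.10 ± 0.21 and 3.28 ± 0.21 in repopulation (log2, Ki67-negative first). Tk1 overlaps Afmid on the opposite strand by 96 bases, and the strand setting of the counting is not given in the sources used here, so reads in that stretch cannot be assigned. Dck, which phosphorylates deoxycytidine and other deoxynucleosides, lies on chromosome 5 (88765013 to 88783277). It was at 29.2 and 35.3 CPM in adult cells, at 66.5 and 71.0 in PND8 Ki67-negative, and at 46.2 and 46.6 in PND8 Ki67-positive cells. In repopulation it was at 93.4 and 121 in Ki67-negative and at 82.9 and 114 in Ki67-positive cells. Adult libraries were below all others, but the distance differed: it was 1.10 ± 0.17 (Ki67-negative) and 0.53 ± 0.17 (Ki67-positive) at PND8, then 1.73 ± 0.16 and 1.61 ± 0.17 among repopulating cells. The smallest of these, in PND8 Ki67-positive cells (adjusted p = 0.0191, edgeR), did not pass without adult replicate 1 (0.39, adjusted p = 0.161) or without either PND8 Ki67-positive library (0.0622 and 0.0684).

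Umps changed little, and Cad rose by a small amount at PND8. Umps, on chromosome 16 (33954782 to 33967038), was at 41.2 and 51.1 CPM in adult cells, and 3 of the other 4 groups overlapped this range: repopulating Ki67-negative cells with 41.1 and 52.7, repopulating Ki67-positive cells with 41.8 and 43.6, and PND8 Ki67-positive cells with 47.6 and 53.3. PND8 Ki67-negative cells, at 55.4 and 67.5, were higher (0.42 ± 0.15, adjusted p = 0.0339, edgeR), but the call was lost in 9 of 18 alternative fits, among them those without adult replicate 1 (0.27, adjusted p = 0.277) and without PND8 Ki67-negative replicate 2 (0.24, 0.273). Cad, on chromosome 5 (31054780 to 31078479), was at 83.6 and 94.5 CPM in adult, 117 and 133 in PND8 Ki67-negative, and 123 and 145 in PND8 Ki67-positive cells. It was at 79.4 and 91.6 in repopulating Ki67-negative and at 83.7 and 95.6 in repopulating Ki67-positive cells, which overlapped the adult pair. Cad rose at PND8, by 0.49 ± 0.12 (adjusted p = 0.00464) in Ki67-negative and 0.59 ± 0.12 (0.00108) in Ki67-positive cells. In repopulation the log2 difference from adult was -0.06 ± 0.12 and 0.01 ± 0.12. Without adult replicate 1 the rise in PND8 Ki67-negative cells was 0.40 (adjusted p = 0.0672).

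On the TPM scale (which divides by transcript length and so allows genes to be set side by side), the order of the enzymes differed between adult and other cells. In adult cells Umps (17.9 and 22.1 TPM) and Cad (17.8 and 20.0) came first, followed by Dck (14.4 and 17.4), Rrm1 (12.04 and 10.67), Tk1 (9.63 and 8.38), Tyms (3.23 and 3.30), Dut (2.02 and 2.20) and Rrm2 (1.05 and 0.93). The adult ranges of Umps and Cad overlapped, and Dck lay just below both. In each of the other 8 libraries Rrm2 (62.1 to 104 TPM) and Tk1 (62.2 to 92.1) held the first 2 places, with their order varying between libraries. Rrm1 (44.2 to 67.2) was in the third place in 7 of the 8, and behind Dck in repopulating Ki67-negative replicate 1. Dut (9.90 to 23.2) and Tyms (12.4 to 23.5) stood in the lower places. Values of Tyms rest on different transcripts in the count and TPM tables.

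Isoenzymes that serve cells at rest ran against those of S phase. Rrm2b was at 18.1 and 13.7 TPM in adult cells and at 7.18 to 9.41 in the other 8 libraries, and it fell against adult in all 4 comparisons, at -0.78, -0.91, -0.84 and -1.07 on the log2 scale (PND8 Ki67-positive, PND8 Ki67-negative, repopulating Ki67-negative and repopulating Ki67-positive). Adult cells therefore held 17.3 and 14.7 times as much Rrm2b as Rrm2, whereas the ratio was 0.070 to 0.146 in the other libraries. Rrm2 stood at 0.087 of Rrm1 in both adult libraries and at 1.05 to 1.67 of it elsewhere. Tk2 was at 96.4 and 87.0 TPM in adult cells, 10 and 10.4 times Tk1, and the ratio of Tk1 to Tk2 was 0.795 to 2.07 in the other libraries. Tk2 fell by 0.63 in PND8 Ki67-positive, 0.58 in repopulating Ki67-negative and 0.84 in repopulating Ki67-positive cells, while in PND8 Ki67-negative cells its log2 difference was -0.18 ± 0.10 (adjusted p = 0.153, edgeR).

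**Figure D2:**
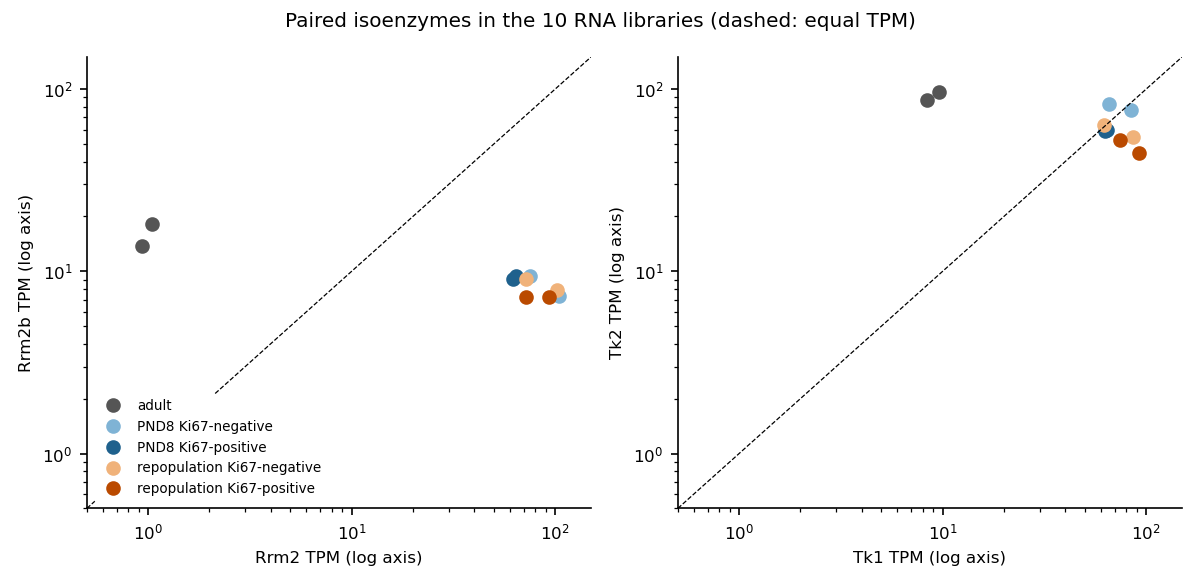
TPM (log axes) of Rrm2b against Rrm2 and of Tk2 against Tk1 in the 10 RNA libraries, with 1 point per library and a dashed line at equal TPM. The 2 adult libraries lie above the line in both plots, and all other libraries lie below it for Rrm2b and near it for Tk2.

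Between the Ki67 fractions of one context, no enzyme was called higher in Ki67-positive cells. At PND8 the log2 difference (Ki67-positive minus Ki67-negative) was below 0 for 7 of the 8 enzymes, and Cad was at 0.11 ± 0.12. Dut alone of the 8 passed, at -1.01 ± 0.23 (adjusted p = 0.017, edgeR), and 5.90% of all tested genes were called in either direction. Dut libraries did not overlap: 24.9 and 35.0 CPM in Ki67-negative against 14.9 and 14.9 in Ki67-positive cells. Dck (-0.57 ± 0.16, adjusted p = 0.0536) and Rrm2 (-0.52 ± 0.18, adjusted p = 0.119) came next, also without overlap. Tyms, Tk1 and Umps, which were not called, had no overlap either, and 45.5% of all tested genes had none in this comparison. Rrm1, at -0.02 ± 0.16, showed no difference beyond its error. Among related genes, Ctps, which makes CTP from UTP, fell by 0.60 ± 0.14 (adjusted p = 0.0192), and Tk2 by 0.44 ± 0.10 (0.0198), a call that was lost in 7 of 19 alternative fits.

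Over 19 alternative fits the Dut difference at PND8 ran from -1.23 to -0.71 and its adjusted p from 1.02e-05 to 0.156. The call was lost in 5 of them, among which were the fits without PND8 Ki67-negative replicate 2 (-0.71, adjusted p = 0.106) and without Ki67-positive replicate 1 (0.102) or replicate 2 (0.156). Dck gained a call in 10 of the 19 fits and Rrm2 in 4. Directory names in the file headers end in codes whose meaning is not stated, and each PND8 replicate pair shares one. Within these 2 codes Dut differed by -0.73 and -1.22, Dck by -0.52 and -0.61, and Rrm2 by -0.30 and -0.69 on the log2 scale.

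In repopulation none of the 8 passed between the Ki67 fractions, where 2.74% of tested genes did (335 in edgeR at an adjusted threshold of 0.05, and 1927 at an unadjusted one, none of the 8 with adjusted p under 0.312). The log2 differences ran from -0.49 ± 0.23 (Dut) to 0.22 ± 0.16 (Rrm1), and the libraries of all 8 enzymes overlapped, while 47.7% of tested genes did not. Within the 2 codes Dut differed by -0.52 and -0.47. The Ki67 difference itself was not shown to depend on the context: 0 of 12230 genes passed this test in edgeR, 613 did at an unadjusted p under 0.05 and 3 passed in DESeq2. Among the enzymes it was largest for Dut, at 0.52 ± 0.32 (adjusted p = 0.960).

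**Figure D3:**
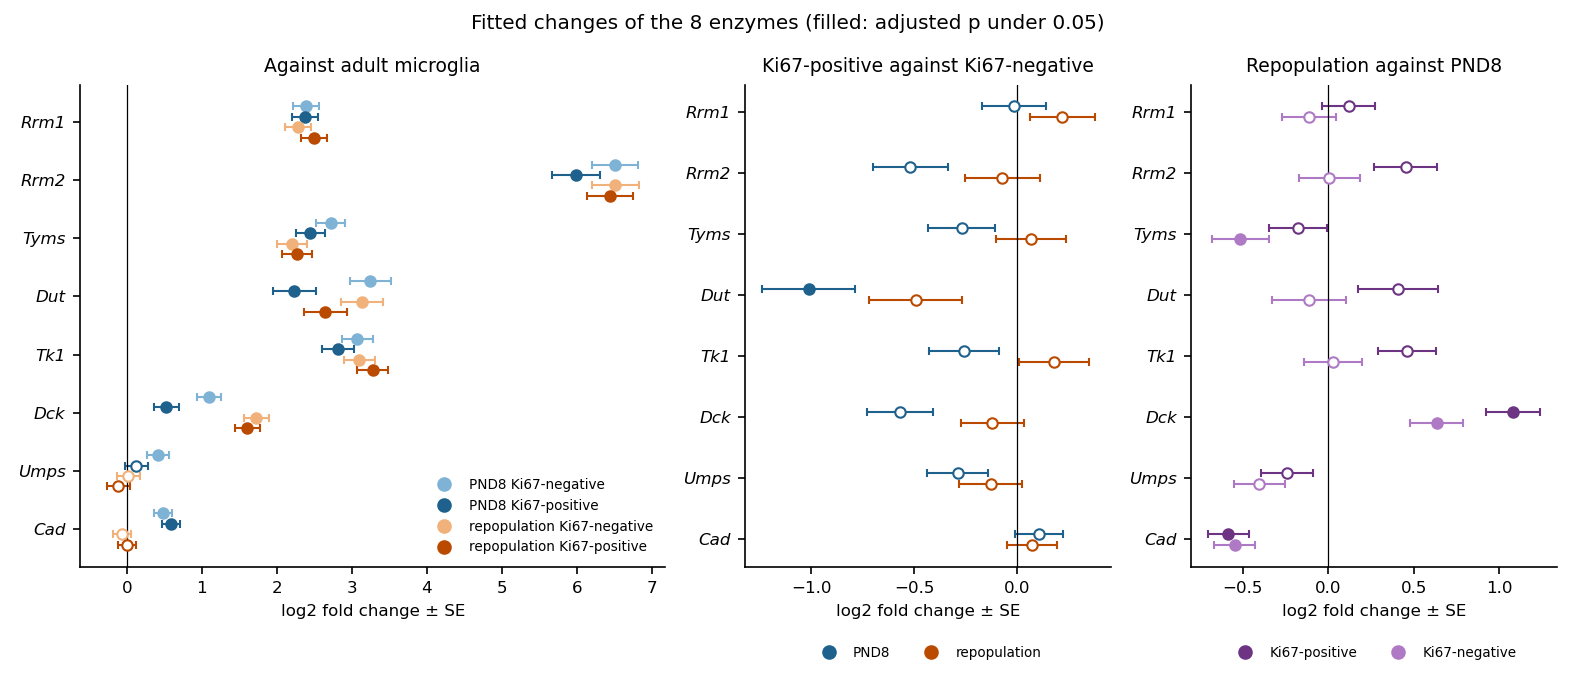
Fitted log2 fold change ± SE of the 8 enzymes against adult (left), of Ki67-positive against Ki67-negative cells (middle) and of repopulation against PND8 (right), with filled points at adjusted p under 0.05. Dut at PND8, at -1.01, is the only filled point in the middle panel, and Dck lies above 0 and Cad below 0 in the right panel in both Ki67 fractions.

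Repopulating and PND8 cells of the same Ki67 class differed in a few of the enzymes. Dck was higher in repopulation, by 1.08 ± 0.16 (adjusted p = 0.000192, edgeR) in Ki67-positive and 0.63 ± 0.16 (0.00622) in Ki67-negative cells. Cad was lower, by 0.58 ± 0.12 (0.00235) and 0.55 ± 0.12 (0.00310). Tyms was at -0.51 ± 0.17 (adjusted p = 0.0278) in Ki67-negative and at -0.18 ± 0.17 (0.463) in Ki67-positive cells, and the test of the difference between these gave 0.34 ± 0.24 (adjusted p = 0.96). These are 2 and 3 of the 8 enzymes, where 30.9% and 36.6% of all tested genes were called in the Ki67-positive and Ki67-negative comparison, so the share of the enzymes lay near the background. Rrm1, at 0.12 ± 0.16 and -0.11 ± 0.16, showed no difference beyond its error.

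Header codes bear on this comparison, because the first repopulation pair shares a code with the second PND8 pair and the others do not. In those 2 code-matched pairs the difference was 0.83 (Ki67-positive) and 0.39 (Ki67-negative) for Dck, and -0.79 and -0.74 for Cad, on the log2 scale. For Rrm2 it was 0.21 and -0.50, and for Tyms -0.39 and -0.89. With the code as a term, Rrm2 was lower in repopulating Ki67-negative cells (-0.38, adjusted p = 0.0144, edgeR), where the fit without it gave 0.01 ± 0.18. There 7 rather than 3 of the 8 were called, beside 5163 rather than 4473 of all 12230 tested genes. In Ki67-positive cells the same term gave Tyms -0.48 (adjusted p = 0.0121). The Dck difference in Ki67-negative cells was 0.45 (adjusted p = 0.0723) without repopulating Ki67-negative replicate 2. For Tyms, leaving out PND8 Ki67-negative replicate 2 gave -0.33 (0.203), and leaving out repopulating Ki67-negative replicate 1 gave -0.29 (0.288). All adult RNA libraries have a code of their own, so for comparisons with adult the code and the group cannot be told apart.

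Other genes of nucleotide metabolism, in lists chosen with earlier results of these data known, were counted in the same fits. Of 15 other pyrimidine and deoxynucleotide enzymes, 7 rose and 4 fell in PND8 Ki67-positive cells against adult, and 6 rose and 4 fell in repopulating Ki67-positive cells, with medians of 0.53 and -0.04 (log2). Of all tested genes 25.1% rose and 24.3% fell in the first comparison, and 23.9% rose and 21.0% fell in the second, so the share that fell lay near the background. Uck2, a uridine and cytidine kinase, rose most, by 2.43 ± 0.34 and 2.12 ± 0.35. The largest falls were Rrm2b at PND8 and Dctd, the dCMP deaminase, in repopulating Ki67-positive cells (-1.13 ± 0.32, adjusted p = 0.0111, edgeR). Dhodh, the mitochondrial enzyme between the steps of Cad and those of Umps, did not pass in any comparison with adult (log2 difference -0.44 to 0.18). Set against PND8, Dhodh was lower in repopulating Ki67-negative cells (-0.55 ± 0.19, adjusted p = 0.0353, edgeR), a call lost in 8 of 19 alternative fits. In Ki67-positive cells it was not called (-0.47 ± 0.19, adjusted p = 0.0746). In the folate cycle, 6 of 7 rose at PND8 in each Ki67 fraction, and 5 and 4 rose in repopulating Ki67-positive and Ki67-negative cells, with none lower. Beside these, 25.1% (Ki67-positive) and 25.4% (Ki67-negative) of all tested genes rose at PND8, and 23.9% and 21.5% in repopulation.

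Genes of purine synthesis were lower in repopulating than in PND8 cells where they were called. Of 13 genes of the de novo purine pathway, 7 rose against adult in PND8 Ki67-positive and 9 in PND8 Ki67-negative cells, with none lower, beside rises of 25.1% and 25.4% of all tested genes. In repopulation 3 rose and 3 fell in Ki67-positive cells, and 2 rose and 3 fell in Ki67-negative cells, which lies near the background (23.9% higher and 21.0% lower, then 21.5% and 17.6%). Set directly against PND8, repopulating cells had 7 of 13 lower in the Ki67-positive and 9 of 13 lower in the Ki67-negative fraction, none higher, and all 13 log2 differences below 0. Of all tested genes 14.2% and 18.6% were lower in these comparisons. The median was -0.34 and -0.58, beside 0.00 and -0.04 over all tested genes. Impdh1, which catalyses the committed step to guanine nucleotides, had the largest fall, at -2.36 ± 0.32 and -2.55 ± 0.31 on the log2 scale. It was at 18.0 ± 3.74 and 13.1 ± 3.22 CPM (SD, n = 2) in PND8 Ki67-negative and Ki67-positive cells, at 6.43 ± 0.59 in adult, and at 3.13 ± 0.75 and 2.51 ± 0.70 in repopulating cells. The repopulation values rest on at most 26 counts per library. Impdh2, the other Impdh gene of the list, was more abundant, at 43.4 ± 7.36 and 48.5 ± 9.38 CPM in repopulation. It was at 56.5 ± 10.6 and 52.5 ± 8.01 at PND8 and at 30.6 ± 1.36 in adult cells. Against adult it rose by 0.66 ± 0.18 (adjusted p = 0.00925, edgeR) in repopulating Ki67-positive cells.

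Of 12 genes of salvage and breakdown, 9 passed the filter on low counts. In PND8 cells 4 of the 9 rose and 2 fell in each Ki67 fraction, and in repopulation 2 (Ki67-positive) and 3 (Ki67-negative) rose and none fell. Of all tested genes 25.1% and 25.4% rose and 24.3% and 21.4% fell at PND8 (Ki67-positive, then Ki67-negative), and 23.9% and 21.5% rose and 21.0% and 17.6% fell in repopulation, so the 2 that fell at PND8 and the 2 that rose in repopulating Ki67-positive cells lay near the background. Adk, adenosine kinase, rose in Ki67-positive cells by 2.06 ± 0.29 (PND8) and 1.80 ± 0.30 (repopulation). Samhd1 moved in opposite directions in the 2 contexts. It was at 199 and 200.0 CPM in adult cells, at 120 to 152 at PND8 and at 248 to 294 in repopulation. It fell against adult by 0.66 ± 0.08 and 0.44 ± 0.08 at PND8 (Ki67-positive, then Ki67-negative), and rose by 0.32 ± 0.08 and 0.52 ± 0.08 in repopulation. The direct difference between contexts was 0.98 ± 0.08 (adjusted p = 1.33e-06, edgeR) in Ki67-positive and 0.97 ± 0.08 (1.29e-06) in Ki67-negative cells. Per TPM, Rrm2 stood at 0.012 and 0.014 of Samhd1 in adult cells, at 1.23 to 1.76 at PND8 and at 0.675 to 1.03 in repopulation.

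**Figure D4:**
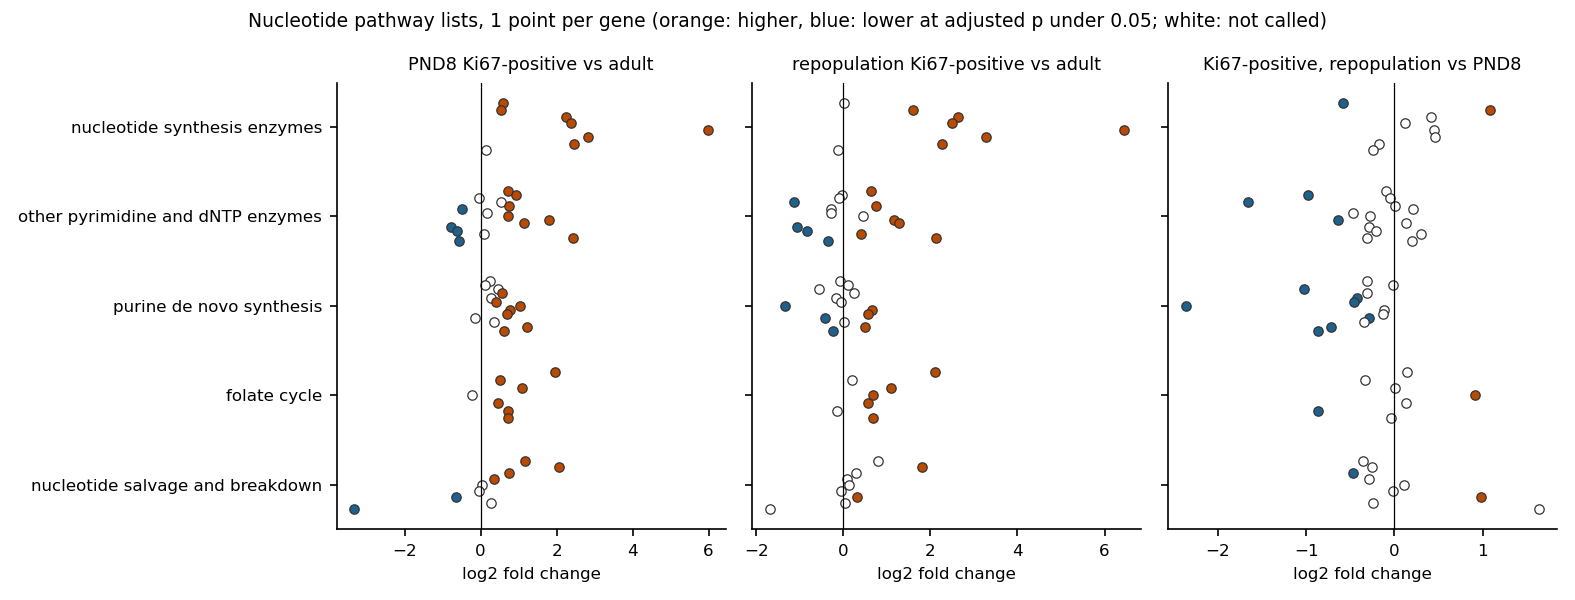
Log2 fold change of each gene of 5 nucleotide pathway lists in 3 comparisons of Ki67-positive cells, with 1 point per gene (orange higher, blue lower at adjusted p under 0.05, white not called). In the right panel all 13 purine synthesis genes lie below 0, and 7 of them are called.

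Promoters of the enzymes were then examined for peaks within 1 kb of the start site used in the count table, in each list on its own. H3K4me3 and open chromatin were present at most of them in adult cells. H3K4me3 peaks lay at 8 of 8 start sites in adult replicate 1 (60.7% of all 20999 genes, 90.6% of the genes tested in the RNA fit) and at 7 of 8 in replicate 2 (60.0% and 90.4%), the exception being Tk1. ATAC-seq peaks lay at 6 of 8 in adult cells (56.0% of all genes), Tyms and Tk1 lacking one, and at 7 of 8 at PND8 (58.4%) and in repopulation (60.8%), Tk1 lacking one. Of the genes tested in the RNA fit, 88.3%, 89.2% and 90.8% had one. Dck had one of the strongest ATAC-seq peaks of each list, at percentile 99.8 or 99.9 of the peaks by signal.

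H3K27ac set the enzymes apart by group. Dck, Umps and Cad carried a peak in all 12 lists. Rrm2, Tyms, Dut and Tk1 carried none in either adult list, and Rrm1 carried one in adult replicate 2 only. In total 3 and 4 of the 8 had a peak in the adult lists (41.3% and 46.0% of all genes), 6 and 7 in PND8 Ki67-negative (48.6% and 49.6%), 8 and 8 in PND8 Ki67-positive (49.5% and 51.1%), and 8 and 7 in repopulating Ki67-positive cells (50.6% and 47.8%). After cuprizone the counts were 4 and 5 in Ki67-negative (44.0% and 49.7%) and 6 and 7 in Ki67-positive cells (46.0% and 50.8%). Genes tested in the RNA fit had peaks more often than all genes. Their shares were 69.5% and 77.1% in adult, 81.2% and 82.8% in PND8 Ki67-negative, 82.6% and 84.8% in PND8 Ki67-positive, and 84.0% and 79.8% in repopulating Ki67-positive cells. They were 73.6% and 82.8% in cuprizone Ki67-negative and 77.0% and 84.5% in cuprizone Ki67-positive cells. Against these shares, the enzymes lay below the background in both lists of adult and of cuprizone Ki67-negative cells, and near it elsewhere. Peaks were called per library, so presence is described here and not tested.

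**Figure D5:**
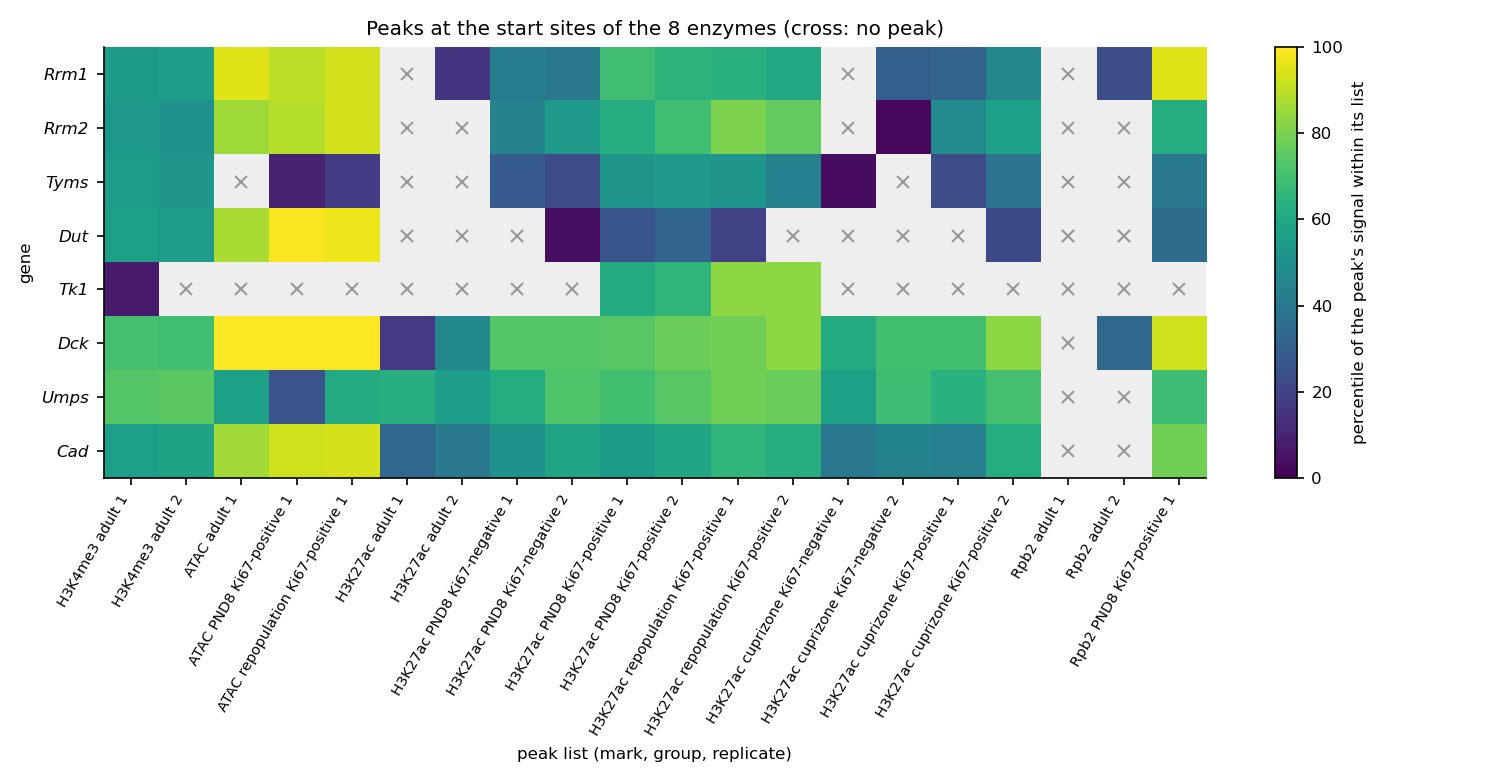
Peaks within 1 kb of the start sites of the 8 enzymes in the 20 lists, coloured by the percentile of the peak's signal within its own list, with a cross where no peak was called. In the adult columns Rrm2 and Dut have H3K4me3 and ATAC-seq peaks but crosses for H3K27ac and Rpb2, and Tk1 has H3K27ac peaks in 4 lists only.

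A peak in both PND8 Ki67-positive lists and in neither adult list was found at 4 of the 8 start sites (Rrm2, Tyms, Dut and Tk1), beside 3.51% of all genes and 5.59% of the genes tested in the RNA fit. For repopulating Ki67-positive cells it was 3 of 8 (Rrm2, Tyms, Tk1; 2.89% and 4.55%). For PND8 Ki67-negative cells it was 2 of 8 (Rrm2, Tyms; 2.67% and 4.25%). Among cuprizone lists it was 2 of 8 in Ki67-positive (Rrm2, Tyms; 2.15% and 3.34%) and 0 of 8 in Ki67-negative cells (1.06% and 1.64%). The reverse, a peak in both adult lists and in neither list of another group, was found at none of the 8 for any group (0.0333%, 0.0857%, 0.0857%, 0.0571% and 0.0286% of all genes for PND8 Ki67-positive, PND8 Ki67-negative, repopulating Ki67-positive, cuprizone Ki67-positive and cuprizone Ki67-negative cells). Among the lists that share a header code with adult replicate 2, that list had a peak at 4 of 8, against 7 in PND8 Ki67-negative and 8 each in PND8 and repopulating Ki67-positive cells. With 2 kb each side, adult replicate 2 also had a peak at Tk1, so the place of Tk1 in the counts above depends on the window.

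Among single promoters, Rrm2 had H3K27ac peaks of 2213 and 2545 bases in the PND8 Ki67-positive lists and of 2990 and 3544 bases in the repopulating ones, all covering the start site. Its signal ranked at percentile 61.9 and 69.4 of the peaks of the PND8 lists and at 80.3 and 76.0 of the repopulating ones. In adult cells the nearest H3K27ac peak lay 56195 and 56159 bases away. After cuprizone, Rrm2 had peaks of 2592 and 2289 bases in both Ki67-positive lists, and in the Ki67-negative lists none in replicate 1 and one of 501 bases in replicate 2 (percentile 2.05). Within this window Tk1 was the most restricted of the 8. It had a peak only in the 2 PND8 Ki67-positive lists (percentile 61.0 and 65.4) and the 2 repopulating ones (83.0 and 82.9), and was the only one of the 8 with a peak in both PND8 Ki67-positive and neither PND8 Ki67-negative list (0.562% of all genes and 0.809% of those tested). Its nearest ATAC-seq peak lay 1152 to 1221 bases from the start site in the 3 lists, just outside the window. In the other H3K27ac lists its nearest peak lay 1276 to 2142 bases away. With 2 kb each side only adult replicate 1 lacked a Tk1 peak, so its restriction depends on the window. Ranks describe a peak within its own list, and the lists differ in length.

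Tyms had H3K27ac peaks of 885 and 946 bases in PND8 Ki67-negative and of 1326 and 1341 bases in PND8 Ki67-positive lists, and none within 32902 bases in adult cells. Dut, whose RNA was lower in Ki67-positive cells at PND8, had peaks of 1130 and 1529 bases in both PND8 Ki67-positive lists. In the PND8 Ki67-negative lists it had none in replicate 1 and one of 501 bases in replicate 2 (percentile 3.85). For Dut the RNA was higher in the Ki67-negative fraction and the peaks were wider in the Ki67-positive one. RNA cells were sorted by reporter and ChIP cells by antibody.

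Rpb2 peaks were found at 0 and 2 of the 8 start sites in the adult lists (36.0% and 30.6% of all genes) and at 7 of 8 in PND8 Ki67-positive cells (48.4%), the exception being Tk1. The shares of genes tested in the RNA fit were 60.7% and 51.7% in adult and 80.4% at PND8. The 2 adult ones, at Rrm1 and Dck, were in replicate 2. A peak in the PND8 list and in neither adult list stood at 5 of 8 (Rrm2, Tyms, Dut, Umps, Cad), beside 16.9% of the genes tested in the RNA fit. Umps and Cad are among these, although their RNA was at most 0.59 higher on the log2 scale than in adult cells. A pair of the 8, Rrm2 and Dut, had H3K4me3 in both adult lists and open chromatin there, but neither H3K27ac nor Rpb2 (9.14% of the genes tested in the RNA fit). At PND8 the Rrm1 peak was the strongest of the 7, at percentile 95.0 of its list. The PND8 list has 31602 peaks against 14550 and 10544 in the adult ones, had an H3K27ac input as its control and has no replicate. The part of list length and input in these counts was not tested. Rrm2b and Tk2 had Rpb2 peaks in all 3 lists, where 60.7% and 51.7% (adult) and 80.4% (PND8) of tested genes had one in each list on its own.

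The gene whose log2 CPM followed each enzyme most closely over the 10 libraries was E2f7, a repressor of the E2F family, for Rrm2 (Pearson r = 0.999), Cdc45, a factor of the replicative helicase, for Dut (0.994), and Pkmyt1, a kinase that inhibits CDK1, for Tyms (0.991). It was Gpi1, a glycolytic enzyme, for Tk1 (0.997), Rps14, a ribosomal protein, for Rrm1 (0.997), Tssc4 for Dck (0.979), Cct6a, a chaperonin subunit, for Cad (0.975) and Trnau1ap for Umps (0.930). The 10 libraries fall into 5 groups, and adult cells stand apart, so these values describe that pattern. Among the enzymes themselves the lowest values were between Dck and Cad (-0.205) and between Dck and Umps (0.006).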

How the data were processed

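RNA was measured in 10 libraries and chromatin in 20 peak lists. Per the file headers, the authors made the deposited counts with HOMER over exons of mm10 transcripts, 1 transcript per gene, with at most 3 tags per position; the deposited TPM came from the same tool. Per the submitters' processing notes, STAR 2.7.0f, Bowtie2 2.3.4.1 and HOMER 4.11 were used, with mm10. Per the file headers, peaks were called on each library. ATAC-seq headers name no build, and mm10 is taken from the notes. The deposited peak signal is the tag count per 10000000 tags, and the deposited score is the authors' peak score.

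Counts (6865903 to 10287876 per library) were analysed in R 4.3.3 by edgeR 4.0.16, using filterByExpr, TMM factors and 1 quasi-likelihood fit of 5 groups and 9 comparisons, with Benjamini-Hochberg adjustment and threshold 0.05. Errors are the SE of a fitted value, or the SD of 2 libraries. All 10 libraries share 1 estimate of spread per gene, so an SE is not the spread of its own group. Noise between the 2 libraries of a group, as chi-square per degree of freedom, was 2.55 in adult and 11.9 in PND8 Ki67-negative cells. In the remaining groups it was 4.19 to 5.34. On counts simulated as PND8 Ki67-positive against Ki67-negative cells (11997 genes in the fit), 168 of 200 genes changed 2-fold were called, all with the right sign, and 8 others. DESeq2 1.42.0, limma 3.58.1 on log2(TPM + 1) and log2(TPM + 0.1), and other fits were alternatives. A start site had a peak when at least 1 base of a peak lay within 1 kb.

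The 8 enzymes were named for every comparison whatever their result, with Rrm2b, Tk2, Dhodh and Samhd1, the called gene of each list with the largest rise and fall, and the most alike gene. The enzymes and lists were chosen with earlier results of these data known. One gene that the rule names is not reported here. Inputs were not analysed here as values.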

Additional observations from a re-analysis of the deposited data

How the results depend on the processing

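Of 2171 single-gene values under an alternative setting, 2079 kept their direction and their side of the threshold, 44 lost a call, 47 gained one and 1 reversed: Rrm2 in Ki67-negative repopulation against PND8, at -0.38 (adjusted p = 0.0144, edgeR) with the header code as a term. The cause was not tested. Between the Ki67 fractions at PND8 the enzymes called were 1 of 8, and 2 with DESeq2, with library sizes alone or with only the groups compared. They were 3 without the filter on low counts, with the replicate block or with the header code as a term, 0 with limma on log2(TPM + 0.1) or on unfiltered TPM, and 0 to 2 with 1 library left out. For repopulation against PND8 in Ki67-positive cells the count of 2 became 4 without the filter, with only the groups compared, with the replicate block or with the header code, and was 2 to 4 with 1 library left out. In Ki67-negative cells the count of 3 became 7 with the header code, and 2 to 4 with 1 library left out. Against adult, leaving out 1 library gave 6 to 7 (PND8 Ki67-positive) and 6 to 8 (PND8 Ki67-negative).

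Over all genes, the 721 calls between PND8 fractions became 1290 without the filter, 392 with only the groups compared, 450 and 419 with limma on log2(TPM + 0.1) and on unfiltered TPM, 1228 with the replicate block, 1631 with the header code, and 220 to 1113 with 1 library left out. The 335 in repopulation became 736 without the filter, 176 and 148 with the same limma fits, 711 with the block, 998 with the code, and 105 to 627 with 1 library left out. For the difference of the Ki67 effect, 0 became 3 with DESeq2, 52 without the filter, 2 with limma on unfiltered TPM, 2 with the block, 11 with the code, and 0 to 71 with 1 library left out, the highest without PND8 Ki67-negative replicate 1. For repopulation against PND8, the 3778 calls in Ki67-positive cells became 4068 without the filter and 4342 with only the groups compared. They became 4362 with the block and 4162 with the code. The 4473 in Ki67-negative cells became 5163 with the code. Same-numbered fractions deviated together (r = 0.338 at PND8, 0.263 in repopulation), but nothing in the labels says that the numbers pair samples. The replicate block is therefore an alternative.

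The mean number of enzymes with a promoter peak per list was 6.08 for H3K27ac, 7.5 for H3K4me3, 3.0 for Rpb2 and 6.67 for ATAC-seq. With only the peaks in the upper part of each list by the authors' score it was 3.5 for H3K27ac, 4.5 for H3K4me3 and 1.67 for Rpb2, and with 1 of the 2 adult lists left out 3.5 to 4.5 for Rpb2. With these upper peaks the share of tested genes with a peak was lower too. For H3K27ac it was 38.5% to 56.6%, against 69.5% to 84.8% with all peaks. For H3K4me3 it was 58.7% to 58.9% against 90.4% to 90.6%, and for Rpb2 34.9% to 69.2% against 51.7% to 80.4%. Where most of the window had to be covered the mean number of enzymes was 0.0 for Rpb2 and 0.0 for ATAC-seq, whose peaks are narrower than that. With 2 libraries a group, the labels call them independent biological replicates. Rrm2 in adult cells rests on 13 and 11 counts, which limits the precision of its folds.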
